A study of Rattus norvegicus with 16 samples.

Results

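The genes described here encode the proteasome and the proteins that cap, activate, assemble or regulate it. They were taken as every probe set (a group of short array probes for 1 transcript) whose single gene symbol starts with Psma, Psmb, Psmc, Psmd, Psme, Psmf or Psmg followed by a number. The rule found 60 probe sets for 46 genes, of 14217 genes named by a single symbol on the array. Of the 60 probe sets, 54 passed the filter on dim signals, and each of the 46 genes kept at least 1. The 6 that did not pass were single probe sets of Psmc4, Psmd9, Psmd11 and Psme1 and a pair of Psmb5, and each of these genes had a brighter one that passed. By role there were 16 genes of the 20S core (16 kept probe sets), 20 with names of the 19S cap (26), 3 activators (5), 5 inhibitor or chaperone genes (5), and 2 genes that match the name rule but encode other proteins (2). Another 6 probe sets carry several symbols at once (Psma3 with Psma3l, Psmb6 with Psmb6l1, and Psme3 with Aoc3 and G6pc1 on 4 of them), so that Psmb6 and Psme3 are not described.

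Hypothalamus RNA came from 16 male Wistar rats 7 to 8 weeks old, 1 array per rat and 4 rats per group. Rats of the stress with linalool group were held in restraint and breathed (R)-(-)-linalool, a floral monoterpene alcohol, for 2 h. The stress group had 2 h of restraint, the linalool group had 2 h of the odour, and the control group had neither. Values are signal intensities after quantile normalization between arrays, differences are on the log2(signal + 16) scale, and p-values come from limma with Benjamini-Hochberg adjustment over 18625 probe sets.

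The proteasome is the barrel-shaped protease that degrades proteins tagged with ubiquitin in the cytosol and nucleus. Its core is a stack of alpha and beta rings, and among the beta subunits those encoded by Psmb5, Psmb6 and Psmb7 cut peptide bonds. Under interferon, cells make the counterparts Psmb8, Psmb9 and Psmb10 in their place, which gives the immunoproteasome and favours peptides for antigen presentation. The 19S cap binds ubiquitin, unfolds the substrate with ATPases of the Psmc group and removes the tag, while activators such as PA28 (Psme1 with Psme2) and PA200 (Psme4) open the barrel without it. In neurons proteasomes turn over synaptic proteins, and in many cell types the transcription factor encoded by Nfe2l1 raises the subunit genes together when proteasome activity falls short.

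Promoters are shown for the constitutive catalytic gene Psmb5 and for 4 genes with known interferon-inducible products, because the values of the inducible genes parted from those of the other core genes in some rats. All are RefSeq sequences of the rat build GRCr8 and run 5′ to 3′ on the gene's strand, with 250 bases before the transcription start and 50 after it. They lie at chr15:32047330-32047629 (Psmb5, minus strand), chr20:4656982-4657281 (Psmb8, minus strand), chr20:4668750-4669049 (Psmb9, plus strand), chr19:50743243-50743542 (Psmb10, minus strand) and chr15:33052702-33053001 (Psme2, minus strand). Capitals in Psmb5 mark a match to TGACNNNGC, the core of the element bound by the factors of Nfe2l1 and Nfe2l2, and capitals in Psmb8, Psmb10 and Psme2 mark the core of the interferon-stimulated response element (a pair of GAAA units with 2 bases between them) on either strand. Psmb9 is shown with no capitals because its window holds no such match.
Psmb5: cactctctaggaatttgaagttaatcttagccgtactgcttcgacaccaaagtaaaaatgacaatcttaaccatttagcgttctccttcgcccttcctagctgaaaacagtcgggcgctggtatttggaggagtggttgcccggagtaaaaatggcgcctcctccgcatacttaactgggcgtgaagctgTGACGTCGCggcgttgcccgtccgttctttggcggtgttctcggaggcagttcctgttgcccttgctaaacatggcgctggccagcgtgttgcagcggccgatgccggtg
Psmb8: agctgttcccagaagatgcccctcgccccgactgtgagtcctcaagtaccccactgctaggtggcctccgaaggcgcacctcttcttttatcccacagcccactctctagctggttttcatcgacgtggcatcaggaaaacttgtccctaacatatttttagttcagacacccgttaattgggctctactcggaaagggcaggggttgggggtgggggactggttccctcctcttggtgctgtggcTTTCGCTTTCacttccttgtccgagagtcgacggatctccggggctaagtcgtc
Psmb9: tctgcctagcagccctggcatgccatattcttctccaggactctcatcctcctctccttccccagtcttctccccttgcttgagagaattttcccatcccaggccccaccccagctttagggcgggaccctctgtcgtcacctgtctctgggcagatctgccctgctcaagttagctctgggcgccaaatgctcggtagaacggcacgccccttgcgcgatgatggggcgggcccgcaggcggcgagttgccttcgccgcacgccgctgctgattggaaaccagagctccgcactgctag
Psmb10: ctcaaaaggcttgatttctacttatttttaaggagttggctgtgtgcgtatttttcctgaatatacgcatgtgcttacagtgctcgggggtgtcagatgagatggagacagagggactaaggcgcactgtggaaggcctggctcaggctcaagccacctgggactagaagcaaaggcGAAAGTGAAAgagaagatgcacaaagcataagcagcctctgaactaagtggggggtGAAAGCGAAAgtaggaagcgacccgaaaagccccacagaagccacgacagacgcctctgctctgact
Psme2: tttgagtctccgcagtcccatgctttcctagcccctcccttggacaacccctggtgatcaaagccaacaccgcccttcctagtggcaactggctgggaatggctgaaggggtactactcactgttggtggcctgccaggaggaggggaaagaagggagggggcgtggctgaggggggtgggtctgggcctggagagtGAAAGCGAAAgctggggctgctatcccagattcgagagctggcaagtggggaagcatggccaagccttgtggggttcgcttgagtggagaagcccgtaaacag

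Of the 44 genes of the 4 proteasome classes, 40 had a promoter in the RefSeq table, which holds 33469 promoters of the same length. TGACNNNGC, read on both strands, occurred in 7 of 40 (17.5%: Psma3, Psmb2, Psmb5, Psmd1, Psmd3, Psmd9 and Psme4), against 12.1% of all promoters. GGGCGG, the box bound by Sp1, occurred in 28 of 40 (70%, against 33.1%). CCAAT, the box bound by NF-Y, occurred in 20 (50%, against 37.5%), and in 11 of the 15 core promoters (73.3%). GAANNTTC, a pair of heat shock element units, occurred in 3 (7.5%, against 8.59%). The response element core was added after the values had been seen, and it occurred in 7 of 40 promoters (17.5%, against 3.92%). Psmb10 held both copies shown in capitals, Psmb8 and Psme2 held 1 each, and the windows of Psmb9 and Psme1 held none. The other 4 genes with a match, Psma4, Psmb3, Psmd7 and Psmg4, are not counted among the interferon-inducible subunits. The STAT-type motif TTCNNNGAA, also added afterwards, was found in 4 (10%, against 8.87%), among them Psmb8. Matches of TGACNNNGC, the CCAAT box, the Sp1 box and the response element core overlapped one another at 2 places, both in Psmb2. These matches are descriptions of letters and do not show binding.

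Several arrays stood apart. The BioC hybridization spike-in read 884.4 to 1014 on 3 arrays (stress with linalool rat 2 and linalool rats 2 and 4, called BioC-high here) and 201.3 to 271.4 on the other 13. Of rats that inhaled linalool, the BioC-low arrays thus keep only linalool rats 1 and 3 and stress with linalool rats 1, 3 and 4. Where a call is lost within them, the BioC split and the fewer rats cannot be told apart. Before normalization control rat 2 had the lowest array median, 67.03, with the others from 70.27 to 127.5. The log2 ratio of 3′ to 5′ beta-actin signal, a measure of RNA integrity, ran from 1.06 (control rat 3) to 2.3 (control rat 1). Stress with linalool rat 1 and control rat 3 ranked first and second of 16 for all 6 kept genes of an interferon-response list (Irf7, Isg15, Mx2, Ifit2, Mx1 and Oas1a). Isg15, a ubiquitin-like modifier, had a signal of 1202.9 in stress with linalool rat 1 and 436.2 in control rat 3, with 75.7 to 208.5 in the other 14. Of 10 hypothalamic marker genes on the array, 9 passed the filter on dim signals.

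No proteasome probe set passed the threshold (adjusted p under 0.05) in any of the 8 comparisons. Over all 18625 probe sets the share called for stress minus control was 0.902% (0.628% higher and 0.274% lower), and for linalool minus control it was 0%. Set against linalool rats, rats given stress with linalool had 1.69% called (1.12% higher and 0.564% lower), and against stressed rats 0.65% (0.596% higher and 0.0537% lower). Against control rats the share was 4.02% (2.45% higher and 1.56% lower). The average stress effect, taken over rats with and without the odour, had 4.21% called (2.65% higher and 1.56% lower), and the average linalool effect, taken over restrained and free rats, had 0.714% (0.596% higher and 0.118% lower). The interaction, which asks whether the stress effect differs with the odour, had 0%. The split leaned further upward with the values as deposited: of the calls, 99.4% rather than 66.6% were higher for stress with linalool minus linalool, 94.2% rather than 61.1% against control rats, 98.2% rather than 62.9% for the average stress effect and 85.2% rather than 69.6% for stress minus control. The average linalool effect went the other way, with 1 call, a lower one, in place of 133 calls of which 83.5% were higher. At these shares a list of 54 would hold few called members or none, so a count of 0 does not set the proteasome genes apart. At an unadjusted p under 0.05 there were 2 members for the stress minus control difference (12.6% of all probe sets), 9 for stress with linalool minus linalool (16.2%), 7 in linalool minus control (9.83%) and 8 between rats given stress with linalool and stressed rats (12.6%). The same counts were 9 for stress with linalool minus control (18.8%), 7 for the average stress effect (18.9%), 11 for the average linalool effect (14.8%) and 4 for the interaction (7.99%).

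The proteasome genes varied little between rats of a group. Their median SD within groups was 0.115 on the log2 scale, against 0.172 over all probe sets and 0.119 over the 3662 bright ones. It was 0.105 for the 13 constitutive core probe sets, 0.108 for the cap and 0.154 for the activators, but 0.318 for the 3 immunoproteasome genes. The 95% interval of the difference lay within 1.5-fold in either direction for 49 of 54 members for stress minus control (84.2% of all probe sets) and for 48 for stress with linalool minus linalool (82.8%). It did so for 49 in linalool minus control (86.6%), 49 in stress with linalool minus stress (84.7%) and 48 when rats given stress with linalool were set against control rats (80.4%). The counts were 54 for the average stress effect (94%), 52 for the average linalool effect (95.3%) and 43 for the interaction (63%). Of the bright probe sets 94.6%, 94.3%, 95.3%, 93.9% and 93% did so in the pairwise comparisons, in the same order. The members' shares there were 90.7%, 88.9%, 90.7%, 90.7% and 88.9%. For the average stress effect, the average linalool effect and the interaction, bright probe sets had 97.7%, 98% and 85.1%, against 100%, 96.3% and 79.6% of members. Except for the average stress effect, members were thus less often within 1.5-fold than bright probe sets, though some members are dimmer. For most members, then, the arrays bound the difference to less than 1.5-fold, but they do not show that the groups are alike. Members with the widest spread were the dim probe set of Psmd14 (SD 0.412), Psmc3ip (0.402), Psmb9 (0.329) and Psmb8 (0.318).

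**Figure D1:**
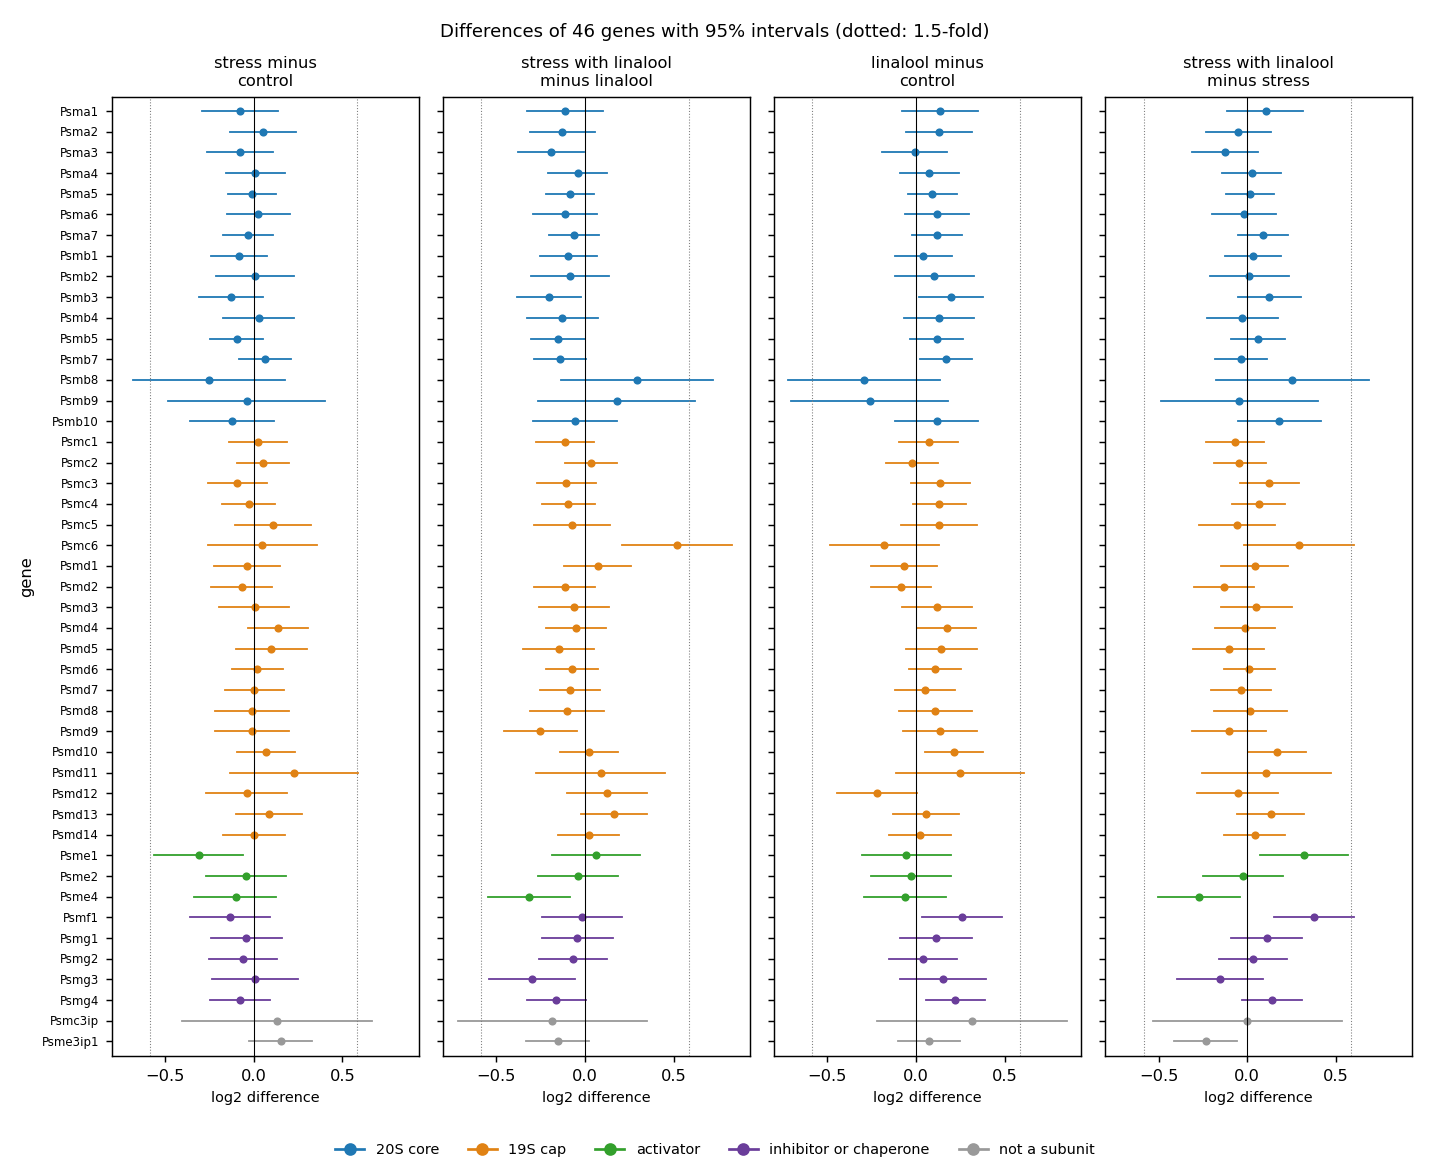
Log2 differences (x axes) of the 46 genes (y axis, 1 probe set each, the brightest), with 95% intervals, for stress minus control, stress with linalool minus linalool, linalool minus control and stress with linalool minus stress; colours give the role and dotted lines mark 1.5-fold. The 13 constitutive core genes all lie left of 0 for stress with linalool minus linalool (all right of 0 with the values as deposited), and the intervals of Psmb8 and Psmb9 are wider than those of the other core genes.

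The constitutive core genes differed by small amounts that mostly shared a sign, and none passed the test. Between rats given stress with linalool and linalool rats the difference was below 0 for all 13 genes (range -0.20 to -0.04, median -0.11), with 45.2% of all probe sets above 0 and a median over all of -0.02. For stress minus control, which shares no arrays with that comparison, 7 of 13 were below 0 (-0.13 to 0.06, median -0.0099). For linalool minus control 12 of 13 were above 0 (median 0.12), and 8 of 13 when rats given stress with linalool were set against stressed rats (median 0.016). The same linalool rats enter the differences of rats given stress with linalool from linalool rats and of linalool rats from control rats. The average stress effect was below 0 for all 13 (median -0.048, with 46.8% of all probe sets above 0). The sign depends on the scaling. With the values as deposited, where the median of all probe sets is itself 0.322 for stress with linalool minus linalool, all 13 genes were above 0 (median 0.207), which is -0.115 relative to all probe sets. For linalool minus control the deposited values gave a median of -0.038, with 4 of 13 above 0, or 0.129 relative to all probe sets. By rat, the median deviation of the 13 genes from their means over all rats was -0.116 to 0.002 in rats given stress with linalool, -0.086 to 0.048 in stressed rats, 0.017 to 0.147 in linalool rats and -0.095 to 0.047 in control rats. All 4 linalool rats were above 0, but stress rat 4 and control rats 1 and 4 lay among them.

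**Figure D2:**
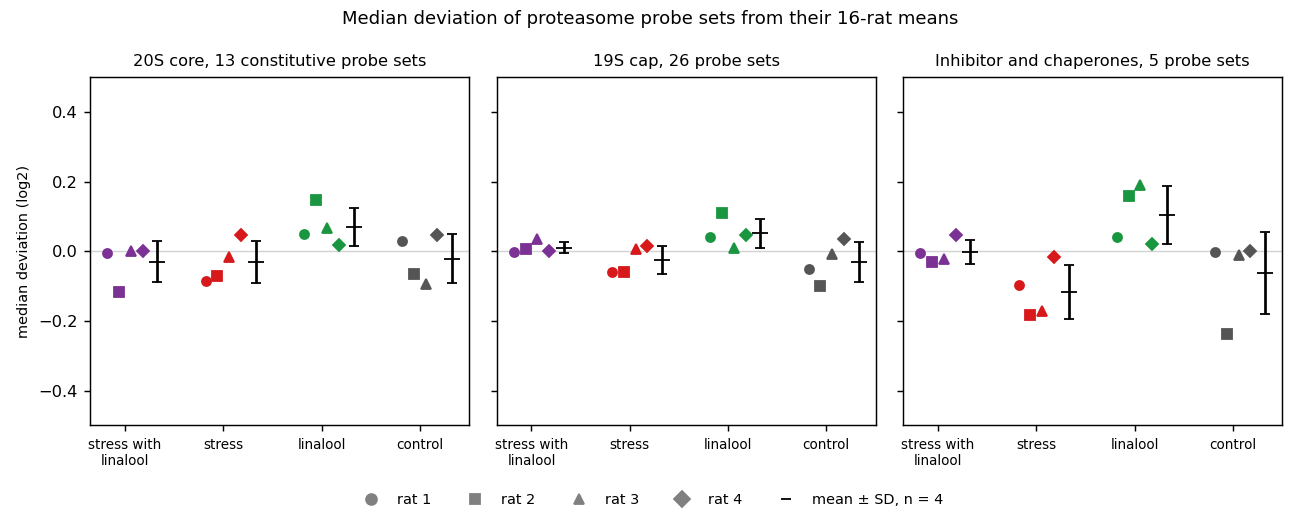
Median deviation from the mean over all rats, in log2 units (y axis), of 13 constitutive core, 26 cap and 5 inhibitor or chaperone probe sets, by group (x axis); markers are rats and bars are the mean with SD (n = 4). After quantile normalization the linalool rats lie above 0 in each panel, and the groups of the core panel span -0.116 to 0.147 in all. With the values as deposited 4 of 13 core, 3 of 26 cap and 2 of 5 inhibitor or chaperone probe sets were above control in linalool rats.

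Psmb5, the subunit with chymotrypsin-like activity and the target of proteasome inhibitor drugs, had signals of 2660.4, 2626.7, 2775.5 and 2729.2 in rats given stress with linalool and 2942.3, 3052.8, 3121 and 2887.1 in linalool rats. It read 2597.9, 2669.3, 2481.5 and 2605.1 in stressed rats and 2919, 2947.2, 2446.7 and 2792.9 in control rats. The linalool rats lay above all 8 restrained rats without overlap, a grouping for which no share over all probe sets was counted. Control rat 3 was the lowest of all 16. The log2 difference was -0.15 (SE 0.071, adjusted p = 0.3) for stress with linalool minus linalool and -0.10 (SE 0.071, adjusted p = 0.615) for stress minus control. Psmb7, the trypsin-like subunit, had a mean signal of 2375 ± 78.4 in rats given stress with linalool and 2625 ± 110 in linalool rats, without overlap. The means were 2437 ± 72.2 in stressed rats and 2336 ± 174 in control rats (SD, n = 4 each), which overlapped. Its differences were 0.17 for linalool minus control (SE 0.069, adjusted p = 0.44) and -0.14 for stress with linalool minus linalool, which did not pass either. Psmb3, a beta subunit with no catalytic site, read 1294.8, 1168.9, 1279 and 1301.9 in rats given stress with linalool and 1310.1, 1536.6, 1603.2 and 1376.8 in linalool rats (-0.20, SE 0.085, adjusted p = 0.25). These ranges did not overlap, though linalool rat 1 (1310.1) and stress with linalool rat 4 (1301.9) lay close. Without overlap for stress with linalool minus linalool were 10 of 54 member probe sets (12.3% of all probe sets). Among them were the core genes Psma3, Psma5, Psma6, Psmb3, Psmb5 and Psmb7, each lower in rats given stress with linalool after normalization. With the values as deposited all 13 constitutive core genes were above 0 for this comparison (median 0.207).

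Among the inducible subunits single rats lay far from the rest of their group. Psmb8, the interferon-induced counterpart of Psmb5, had signals of 261.2, 161.5, 130.8 and 110.6 in rats given stress with linalool and 110.9, 141.3, 170 and 105.4 in stressed rats. It read 130.8, 119, 147.1 and 108.5 in linalool rats and 146.1, 128.3, 190.6 and 172.1 in control rats. The groups overlapped, stress with linalool rat 1 was highest and control rat 3 second, the same pair and order as for Isg15. Psmb9, counterpart of Psmb6, read 252.3, 147, 95.3 and 93.2 in rats given stress with linalool and 141.3, 165.1, 138.7 and 120.3 in stressed rats. It read 107.3, 132.4, 126.7 and 108.3 in linalool rats and 127.3, 144, 160.8 and 149.4 in control rats. The stress with linalool group thus held the highest rat (252.3) and the 2 lowest (95.3 and 93.2). Psmb10, counterpart of Psmb7, was highest in linalool rat 2 (357.7), with control rat 3 second (347.3) and stress with linalool rat 1 next (344.8). Its median over the other 14 rats was 286, so the same 2 rats were near the top, but within the range of 240.9 to 357.7 of the others.

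None of the inducible core genes passed in any comparison. Psmb8 differed by 0.26 for stress with linalool minus stress (SE 0.202, adjusted p = 0.655), by 0.30 for stress with linalool minus linalool (adjusted p = 0.504) and by -0.25 for stress minus control (adjusted p = 0.659). With stress with linalool rat 1 and control rat 3 both left out, a choice made after seeing the data, these became 0.031, 0.072 and -0.17 (SE 0.16, adjusted p = 0.97, 0.902 and 0.755). Psmb9 differed by -0.044 for stress with linalool minus stress (SE 0.209, adjusted p = 0.957), and by -0.32 (SE 0.14, adjusted p = 0.395) without these 2 rats. B2m, the light chain of MHC class I molecules, was also highest in stress with linalool rat 1 (7318.1) and second in control rat 3 (6776.7), with 5034.9 to 6490.2 in the other 14. It was the 1 gene of 6 antigen processing partners with this order. Stress with linalool rat 1 was highest for 5 of the 6 (B2m, Pdia3, Erap1, Irf1 and Tapbp), whereas control rat 3 ranked from 5 to 9 for the other 5. Summed over the 6 interferon-response genes, the signal ran from 469 to 5080 in rats given stress with linalool, 471 to 1070 in stressed rats, 671 to 841 in linalool rats and 666 to 2030 in control rats. The summed signal of 7 microglia markers ran from 2560 to 4800, 2240 to 2930, 2590 to 3310 and 2930 to 3030 in the same order of groups. The highest of these sums, 4800, was in stress with linalool rat 2, and stress with linalool rat 1 had 3400. The markers within the sum did not move together. In stress with linalool rat 2 C1qa (2202.7) and C1qb (1193.7) were the highest of all 16 rats. P2ry12 (220.3) was the lowest of all there, and Cx3cr1 (86.5) was next to its lowest (82.3, in stress with linalool rat 1). The part of interferon response or microglia in the Psmb8 and Psmb9 signals was not tested. In whole tissue, fewer cells of a type and less RNA per cell cannot be told apart.

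**Figure D3:**
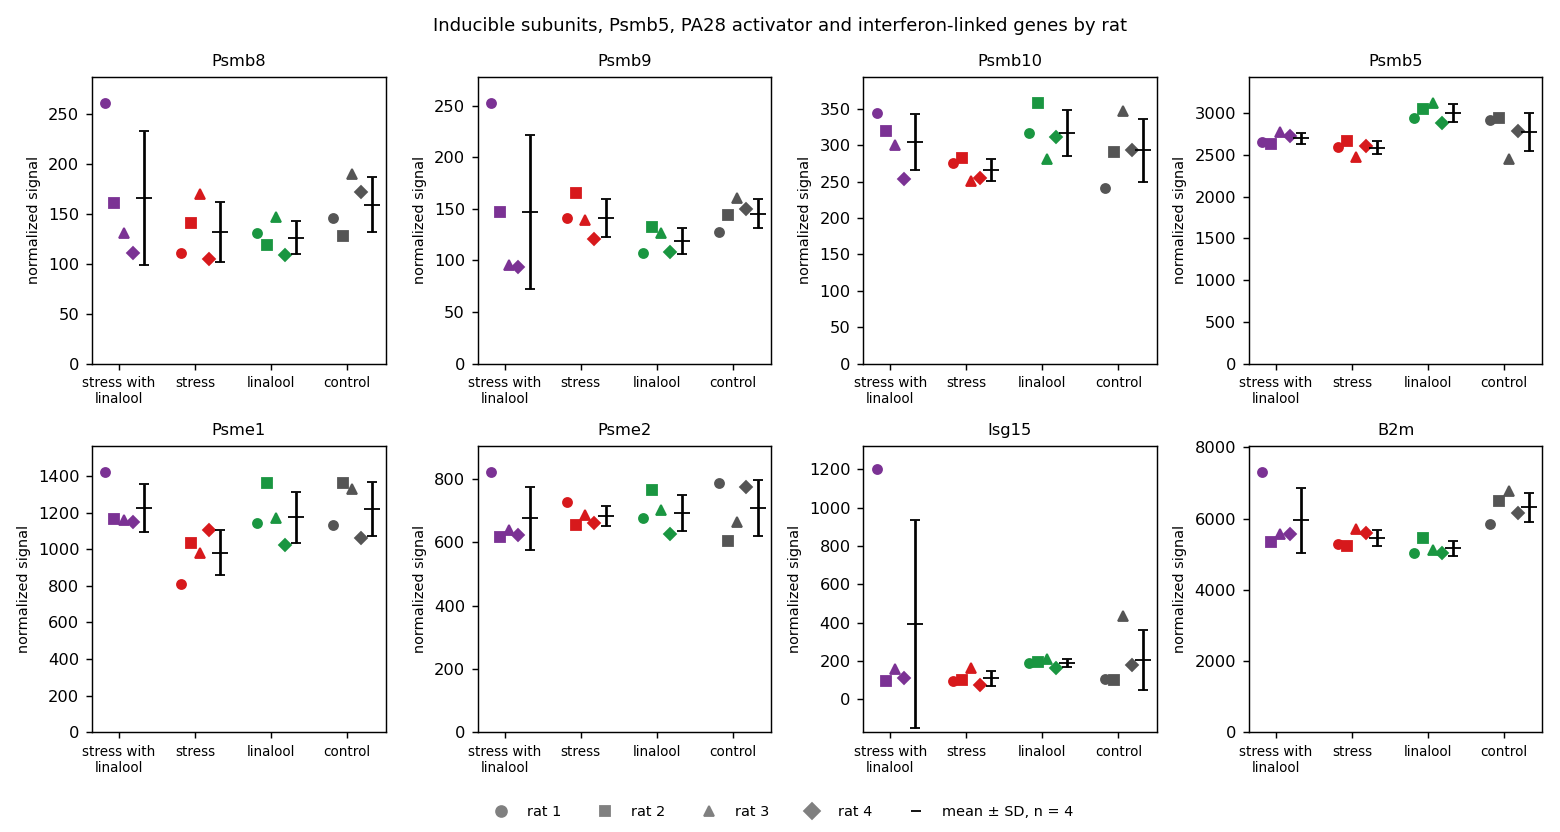
Normalized signal (y axes) of Psmb8, Psmb9, Psmb10, Psmb5, Psme1, Psme2, Isg15 and B2m by group (x axes); markers are rats and bars are the mean with SD (n = 4), and axes differ between genes. Stress with linalool rat 1 is the highest point for Psmb8 (261.2), Psmb9 (252.3), Psme1 (1422.9), Psme2 (823.6), Isg15 (1202.9) and B2m (7318.1), but not for Psmb10 or Psmb5. Of all 46 genes that match the name rule it was highest for 4, and control rat 3 was second for 1 of these (Psmb8).

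Among the 26 kept probe sets of the 19S cap, the median difference was 0.0034 for stress minus control, -0.057 for stress with linalool minus linalool, 0.088 for linalool minus control and 0.034 between rats given stress with linalool and stressed rats. Of the 26, 15, 12, 17 and 17 were above 0, where 50.7%, 45.2%, 51.3% and 44.4% of all probe sets were. The 26 stand for 20 genes, 4 of them with several kept probe sets, which are counted separately here. With the values as deposited all 26 were above 0 for stress with linalool minus linalool (median 0.295), against a median of 0.322 over all probe sets, and 3 of 26 were above 0 for linalool minus control (median -0.093), against -0.167 over all. By rat the cap median stayed between -0.101 (control rat 2) and 0.11 (linalool rat 2).

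The cap gene with the smallest p was Psmc6, an ATPase of the ring that unfolds substrates. Its brightest probe set read 1256.4, 1406.8, 1421.6 and 1298.9 in rats given stress with linalool and 1174.2, 960, 1056.6 and 1202.6 in stressed rats. It read 764.4, 1185.3, 733.3 and 1133.6 in linalool rats and 1141.3, 1169.6, 1071.5 and 871.9 in control rats. All 4 rats given stress with linalool lay above the other 12, a grouping for which no share over all probe sets was counted. In the pairwise comparisons with linalool, control and stressed rats, groups did not overlap for 12.3%, 10% and 10.4% of all probe sets. The difference was 0.52 for stress with linalool minus linalool (SE 0.146, 1.43-fold, adjusted p = 0.0867), 0.34 for stress with linalool minus control (adjusted p = 0.211) and 0.29 for stress with linalool minus stress (adjusted p = 0.427). Linalool rats 2 and 4, at 1185.3 and 1133.6, are BioC-high arrays, and linalool rats 1 and 3, at 764.4 and 733.3, are not. With a block for the BioC split the difference from linalool rats was 0.62 (SE 0.121, adjusted p = 0.0155), and within the 13 BioC-low arrays 0.81 (SE 0.137, adjusted p = 0.0301), so that the call is made there and not in the fit over all arrays. Over 29 alternatives the difference ran from 0.41 without linalool rat 3 (adjusted p = 0.263) to 0.87 with the values as deposited, and 4 of them made the call. The part of the BioC split in the spread of the linalool rats was not tested.

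The other probe sets of Psmc6 did not show the same size. Between rats given stress with linalool and linalool rats the second in brightness differed by 0.23 (SE 0.106, adjusted p = 0.292), with overlap, and the dimmest by 0.15 (SE 0.121, adjusted p = 0.582). The dimmest was lower in stressed than in control rats, at 266.8 ± 28 and 351.8 ± 48.6 (SD, n = 4 each), by -0.37 (SE 0.121, adjusted p = 0.191), where the brightest differed by 0.049. Which of the probe sets follows the mRNA was not tested.

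Psmd10 encodes gankyrin, a chaperone of cap assembly, as Psmd5 and Psmd9 also encode assembly chaperones despite their subunit names. Its signals were 859.3, 875.1, 940 and 818.6 in rats given stress with linalool and 733.3, 716.2, 832.3 and 827.8 in stressed rats. They were 803.9, 936.2, 861.1 and 838.5 in linalool rats and 762.2, 731.1, 702.9 and 760 in control rats. Both groups that inhaled linalool lay above all 4 control rats, while stressed rats overlapped with every group. The difference was 0.24 for stress with linalool minus control (SE 0.077, adjusted p = 0.102), 0.21 for linalool minus control (SE 0.077, adjusted p = 0.381) and 0.19 for the average linalool effect (SE 0.054, adjusted p = 0.124). With the values as deposited, linalool minus control was 0.018. Groups without overlap were found for 5 member probe sets for stress with linalool minus control (10% of all) and for 2, Psmd10 and Psmg4, for linalool minus control (4.74%). No member had separate groups for the average stress effect (0.907% of all) or the average linalool effect (0.279%).

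Psmd2, a scaffold of the cap base that docks ubiquitin shuttles, had a mean signal of 1355 ± 35.1 in rats given stress with linalool and 1560 ± 97.5 in control rats (SD, n = 4 each), without overlap (-0.20, SE 0.08, adjusted p = 0.182). Psmd4, a ubiquitin receptor, read 1107 ± 20.8 in rats given stress with linalool, 1117 ± 10.6 in stressed rats, 1148 ± 42 in linalool rats and 1022 ± 120 in control rats. Control rat 2, at 849, was the lowest of all, and linalool minus control was 0.17 (SE 0.079, adjusted p = 0.496). Psmd12, a lid scaffold, averaged 1048 ± 165 in linalool rats and 1213 ± 85.1 in control rats, which overlapped (-0.22, SE 0.107, adjusted p = 0.523). Psmd11, the lid scaffold Rpn6, read 2259 ± 231 in rats given stress with linalool and 1861 ± 597 in control rats by its brightest probe set, with control rats 2 and 3 at 1135.5 and 1627.8. Its second probe set gave 1332 ± 53.2 and 1303 ± 127 in these groups, and the differences were 0.33 and 0.037, neither of which passed. Psmd14, the deubiquitinase of the lid, differed by 0.032 for the average linalool effect by its brightest probe set (SE 0.058) and by 0.49 by its dim one (SE 0.183, adjusted p = 0.231), whose control rats ran from 64.4 to 199.5. Psmc4, another ATPase, stayed between 986.1 and 1182.9 in all 16 rats. For linalool minus control it differed by 0.13 (SE 0.07, adjusted p = 0.557).

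Among the activators, Psme4 (PA200), which acts in the nucleus and in spermatogenesis, was lower in rats given stress with linalool by all 3 probe sets. The brightest read 274.8, 265, 303 and 286.5 in rats given stress with linalool and 358.6, 302.1, 411.6 and 312.6 in stressed rats. It read 310.6, 351.6, 371.5 and 389.2 in linalool rats and 421.5, 328.8, 333.6 and 406.9 in control rats. The rats given stress with linalool lay below all linalool and control rats, and stress rat 2 (302.1) fell within their range. Against linalool and control rats, groups did not overlap for 12.3% and 10% of all probe sets. With the values as deposited the difference from linalool rats was 0.037, where the normalized values gave -0.31 (adjusted p = 0.17). Against control rats the 3 probe sets differed by -0.38 (SE 0.109, adjusted p = 0.0661), -0.22 (SE 0.108, adjusted p = 0.3) and -0.59 (SE 0.187, adjusted p = 0.093), in order of brightness. Against stressed rats they differed by -0.27, -0.34 and -0.62 (adjusted p = 0.304, 0.177 and 0.159). The dimmest read 159.7, 142.9, 168.5 and 183 in rats given stress with linalool and 247.7, 218.8, 318.1 and 259.3 in stressed rats, with no overlap. In control rats it spread from 167 to 372. These 3 probe sets share 1 gene and the same arrays, and none was called. Over 29 alternatives the brightest ran from -0.43 without control rat 2 to -0.22 with the values as deposited (adjusted p = 0.735) for stress with linalool minus control. With a covariate for the beta-actin ratio it was -0.37 (adjusted p = 0.0427), the 1 alternative that called it.

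Psme1, the alpha chain of PA28, read 1422.9, 1164.8, 1159.2 and 1150.7 in rats given stress with linalool and 810.7, 1031.6, 976.9 and 1103.2 in stressed rats. It read 1142, 1360.6, 1168.9 and 1020.8 in linalool rats and 1130.2, 1360.6, 1326.5 and 1061.4 in control rats. Stressed rats lay below all rats given stress with linalool (0.32 for stress with linalool minus stress, SE 0.118, adjusted p = 0.259), and their difference from control rats was -0.31 (adjusted p = 0.276). Without stress with linalool rat 1 and control rat 3 these became 0.25 (adjusted p = 0.456) and -0.27 (adjusted p = 0.429). In all, 7 member probe sets had groups without overlap for stress with linalool minus stress (10.4% of all probe sets). Psme2, the beta chain, averaged 676.2 ± 98.8 in rats given stress with linalool, 683 ± 32.3 in stressed rats, 692.9 ± 57.1 in linalool rats and 708.7 ± 88.3 in control rats. Its highest rat was again stress with linalool rat 1, at 823.6, and stress with linalool minus control was -0.068 (SE 0.106, adjusted p = 0.79).

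Psmf1 encodes PI31, first known as an inhibitor of the core in the test tube. It read 692.2, 626.6, 589.6 and 636.7 in rats given stress with linalool and 478.8, 430.1, 481.1 and 564.4 in stressed rats. In linalool rats it read 581.9, 741, 628.9 and 633, and in control rats 529.6, 454.6, 627.8 and 540.6. Both groups that inhaled linalool lay above all 4 stressed rats, and control rat 3 (627.8) fell within their range. For stress with linalool minus stress, groups did not overlap for 10.4% of all probe sets. No such share was counted for linalool against stressed rats. The average linalool effect was 0.32 (SE 0.075, 1.25-fold, adjusted p = 0.0653), the smallest p of all members in any comparison. It was made up of 0.37 for stress with linalool minus stress (SE 0.106, adjusted p = 0.129) and 0.26 for linalool minus control (SE 0.106, adjusted p = 0.436), and the interaction was 0.11 (adjusted p = 0.89). Over 28 alternatives the average effect ran from 0.25 with the values as deposited (adjusted p = 0.995) to 0.36 without control rat 3 (adjusted p = 0.0471), and 3 of them made the call.

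**Figure D4:**
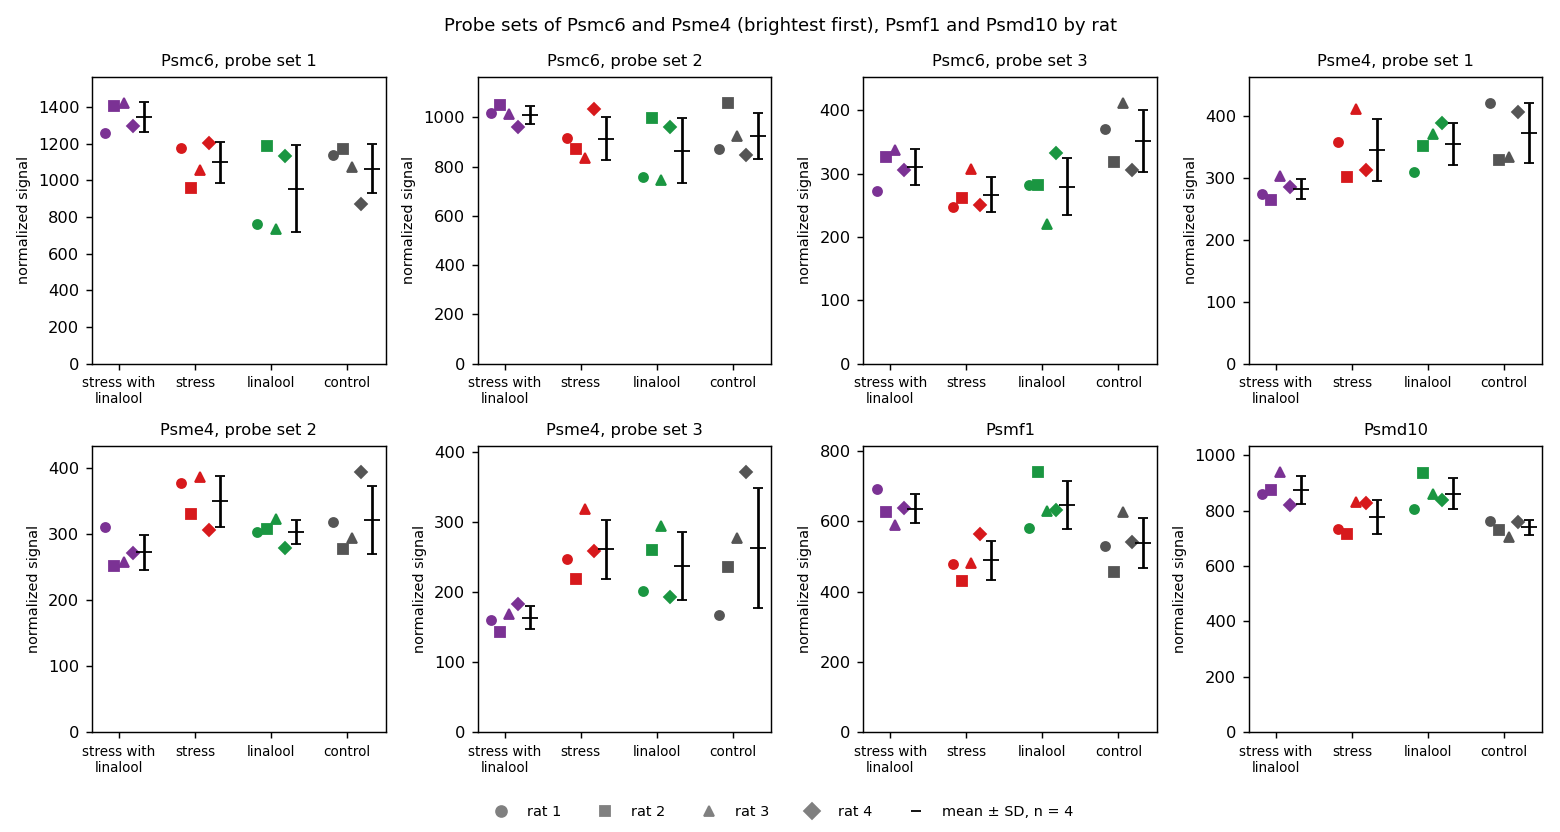
Normalized signal (y axes) of the 3 probe sets each of Psmc6 and Psme4, brightest first, and of Psmf1 and Psmd10, by group (x axes); markers are rats and bars are the mean with SD (n = 4). All rats given stress with linalool lie above the other 12 for the first probe set of Psmc6, and below all linalool and control rats for the first of Psme4. No share over all probe sets was counted for these groupings.

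The chaperones Psmg1 to Psmg4 build the core's alpha ring. Psmg4 read 730.6, 621.7, 657.7 and 682.6 in rats given stress with linalool and 622.5, 575.9, 590.6 and 651.1 in stressed rats. It read 751.1, 779.6, 772 and 713 in linalool rats and 666.5, 564, 660.4 and 690.5 in control rats, so that linalool rats lay above control rats without overlap (0.22, SE 0.079, adjusted p = 0.375). Psmg3 averaged 357.1 ± 6.66 in rats given stress with linalool and 444.3 ± 39.4 in linalool rats (-0.30, SE 0.115, adjusted p = 0.211), also without overlap. Stress rat 2, at 537.4, was the highest of all for Psmg3. The deposited values put all 5 inhibitor or chaperone genes above 0 for stress with linalool minus linalool (median 0.284), where the normalized median was -0.065. For linalool minus control they put 2 of the 5 above 0 (median -0.047), where all 5 were above 0 after normalization (median 0.151). Psmg1 spanned 767.2 (control rat 2) to 1073.9 (linalool rat 3), and linalool minus control was 0.11 (SE 0.095, adjusted p = 0.721). The median deviation of the 5 inhibitor or chaperone genes was -0.031 to 0.047 in rats given stress with linalool, -0.184 to -0.017 in stressed rats, 0.022 to 0.191 in linalool rats and -0.237 to 0.002 in control rats.

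Outside the proteasome itself, Psmc3ip, a protein of meiotic recombination, and Psme3ip1, a partner of the nuclear activator encoded by Psme3, match only by name. Psme3ip1 averaged 451.1 ± 17.8 in rats given stress with linalool and 533.4 ± 16.2 in stressed rats, without overlap (-0.23, SE 0.083, adjusted p = 0.231). Against control rats, at 479.1 ± 28.1 (SD, n = 4 each), stressed rats also did not overlap (0.15, SE 0.083, adjusted p = 0.483), the 1 member probe set of which this held (5.92% of all probe sets). Psmc3ip ran from 71.5 to 203.7 over the 16 rats.

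Genes that work with the proteasome were counted from lists of related pathways, which were drawn up with earlier results of these data known. On the list of receptors, shuttles and deubiquitinases 1 of 11 measured genes rose for stress with linalool minus linalool and none fell (1.69% of all probe sets were called). It was Zfand2a, an arsenite- and heat-inducible cap partner, at 571.2, 502.9, 331.5 and 277 in rats given stress with linalool and 173.4, 207.5, 183.7 and 182.7 in linalool rats, without overlap (1.05, SE 0.178, adjusted p = 0.00639). It read 314.6, 294.8, 220.5 and 268.8 in stressed rats and 223.9, 249.5, 185 and 213.6 in control rats, and it rose for the average stress effect (0.68, SE 0.126, adjusted p = 0.00572). The first of these calls was lost within the BioC-low arrays (1.01, adjusted p = 0.0896), and the average was called in all 28 alternatives. Among 4 measured genes of ubiquitin and its activation Uba6, an E1 enzyme that loads ubiquitin and the ubiquitin-like FAT10, was called in some comparisons. Its calls were for rats given stress with linalool against stressed or control rats and for the average linalool effect, not for linalool minus control. The calls against stressed rats and for the average effect were not made in most alternatives. Uba6 read 495.7, 555, 479.7 and 576.3 in rats given stress with linalool. It read 450.4, 356.9, 346.3 and 264.2 in stressed rats, without overlap (0.57, SE 0.124, adjusted p = 0.0459). For the average linalool effect it differed by 0.41 (SE 0.088, adjusted p = 0.0437). Over the alternatives these differences kept their sign (0.44 to 0.69 and 0.35 to 0.47) but were called in 7 of 29 and 7 of 28. Within the BioC-low arrays they were 0.54 and 0.38 (adjusted p = 0.244 and 0.3). With the values as deposited they were 0.63 and 0.35 (adjusted p = 0.294 and 0.995), and each call was lost on leaving out any 1 of 13 rats. For stress with linalool minus control Uba6 differed by 0.50 (adjusted p = 0.0328). That call held in 16 of 29 alternatives, but not within the BioC-low arrays or with the values as deposited.

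Of 6 measured genes for aggregate clearance, Dnajb1, Bag3 and Hspb8 rose for the average stress effect, by 1.51, 0.996 and 0.77 (adjusted p = 2.42e-05, 0.000728 and 0.000261). Over all probe sets 4.21% were called for this effect, and these 3 calls held in all 28 alternatives. For stress minus control only Dnajb1 was called (1.28, adjusted p = 0.00671, with 0.902% of all probe sets called). All 3 were called for stress with linalool minus linalool (1.69% of all). Within the BioC-low arrays Bag3 and Hspb8 lost that call (adjusted p = 0.115 and 0.0759). Among 6 antigen processing partners Tapbp and Pdia3, which load peptides onto MHC class I, rose for stress with linalool minus stress, by 0.56 (SE 0.119, adjusted p = 0.0413) and 0.37 (SE 0.076, adjusted p = 0.0394). Within the BioC-low arrays the values were 0.62 and 0.35 (adjusted p = 0.115 and 0.168), and the calls held in 7 of 28 and 13 of 29 alternatives. Pdia3 was also called for stress with linalool minus control (0.31, adjusted p = 0.0326), which held in 17 of 29 alternatives. Tapbp was also called for the average linalool effect (0.39, adjusted p = 0.0437), which held in 5 of 27. Neither of these calls held within the BioC-low arrays. Irf8, a transcription factor of myeloid cells, fell for the average stress effect (-0.37, SE 0.1, adjusted p = 0.0496), a call that held in 5 of 27 alternatives (-0.15, adjusted p = 0.456, with the values as deposited). None of the 6 genes of proteasome transcription and assembly, 6 unfolding partners and 2 cap subunits with other symbols (Sem1 and Adrm1) was called in any comparison. With 0% to 4.21% of all probe sets called, lists this short would hold few called genes or none. Nfe2l1 differed by -0.40 for linalool minus control and by 0.088 for stress with linalool minus linalool, with control rat 2 at 772.5 and the other 15 rats from 337.3 to 499.6. Pomp, the maturation factor of the core, ran from 2207 to 3041.5.

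Some markers of cell types moved with restraint beside these values. P2ry12 and Cx3cr1 of 7 microglia markers fell for the average stress effect, by -0.998 (SE 0.124, adjusted p = 0.000237) and -0.49 (SE 0.092, adjusted p = 0.00603). The other 5 did not pass, and 3 of them, Csf1r, C1qa and C1qb, were above 0 (0.22, 0.15 and 0.25, adjusted p = 0.187, 0.668 and 0.424). For stress with linalool minus linalool 5 of the 7 were above 0 (median 0.14). P2ry12 was called in all 28 alternatives, and Cx3cr1 in 25 of 27, but not within the BioC-low arrays (-0.43, adjusted p = 0.0653) or with the values as deposited (-0.27, adjusted p = 0.205). Slco1a4 of 4 endothelial markers fell too (-0.34, adjusted p = 0.0472), as did Opalin of 4 oligodendrocyte markers (-0.76, adjusted p = 0.0305), but these calls held in 7 and 17 of 28 alternatives. On these lists 2 endothelial markers and 1 oligodendrocyte marker were above 0 for the same effect. Within the BioC-low arrays Slco1a4 was at -0.33 (adjusted p = 0.152) and Opalin at -0.69 (adjusted p = 0.0973). Sst of 9 hypothalamic markers rose for the average linalool effect (0.37, SE 0.077, adjusted p = 0.0421). Its call held in 12 of 28 alternatives, but not within the BioC-low arrays (0.33, adjusted p = 0.295) or with the values as deposited (0.32, adjusted p = 0.995). The call was also lost on leaving out any 1 of 11 rats. All 3 BioC-high arrays are of rats that inhaled linalool. None of the neuron (5 measured), astrocyte (4), blood and lymphocyte (3), pituitary (2), choroid plexus (2) and interferon-response (6) markers was called in any comparison. Lists this short would hold few called genes or none at the shares over all probe sets (0% to 4.21%). The part of these marker shifts in the proteasome values was not tested.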

How the data were processed

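Signal intensity was measured on 1 Affymetrix array per rat. The deposited table holds intensity values made by the authors with MAS5, per the submitters' processing notes, and the target they scaled to was not given in the sources used here. Because the arrays were not at a common level, log2 values were quantile-normalized, and differences were then taken on log2(signal + 16), with 16 as the pseudocount. Of 31042 probe sets (57 control probe sets left out), 18625 with a mean log2 value at or above the 40th percentile were kept. A model of group means was fitted in R 4.3.3 with limma 3.58.1 (eBayes, two-sided tests, 12 residual and 3.97 prior degrees of freedom), with Benjamini-Hochberg adjustment and calls at an adjusted p under 0.05. A difference on this scale understates changes of dim genes, and quantile normalization hides a shift shared by most transcripts. The number of arrays limits the precision. The labels number 16 separate rats, so p-values measure the spread between them.

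The members and the lists were chosen with earlier results of these data known. Genes named with values were, per comparison, the called members or the 3 with the smallest p where fewer than 3 were called, plus Psmb5, Psmb6, Psmb7, Psmb8, Psmb9, Psmb10, Psme1, Psme2, Psme3, Psme4, Psmd4, Psmd11, Psmd12, Psmd14, Psmc4, Psmf1 and Psmg1. The brightest kept probe set stood for a gene. Other members and the interferon-response genes by rat were named after their values were seen. Deviations of rats with the same number were correlated at -0.16 to 0.23 over 24 pairs of rats. Of these pairs 4 were over 0.1, so the numbers were not taken as pairing. Alternatives were the values as deposited, trimmed-mean scaling, other filters and pseudocounts, the replicate number or the BioC split as a block, the BioC-low arrays alone, the beta-actin ratio as a covariate, a fit of the 2 groups compared, and arrays left out. The same alternatives were applied to the called genes outside the proteasome after their values had been seen. The fit was tested on simulated data.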

Additional observations from a re-analysis of the deposited data

Results flagged for a closer look

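In each group of 4 rats, a rat was marked where its gap to the nearest other rat took up more than 0.829 of the group's range, which chance does in about 1 of 20 groups. Of 112 groups checked, 7 were marked. Psme1 was high in stress with linalool rat 1, at 10.49 on the log2(signal + 16) scale against 10.19 to 10.21 in the other rats of its group. In the same rat Psme2 was high, at 9.71 against 9.3 to 9.36, and Psmd4 was low, at 10.09 against 10.14 to 10.15. Psmb3 was low in stress with linalool rat 2 (10.21, against 10.34 to 10.36) and high in control rat 3 (10.5, against 10.25 to 10.27). The median deviation of the constitutive core genes was -0.12 in stress with linalool rat 2, a BioC-high array, with the other rats of its group at 0. The median deviation of the inhibitor or chaperone genes was -0.24 in control rat 2, the array with the lowest median before normalization, with the others of its group from -0.01 to 0.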

How the results depend on the processing

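Which proteasome probe sets reach a call depends on single choices. For stress with linalool minus linalool the count of 0 became 1 (Psmc6) with the values as deposited, with a block for the BioC split and in the BioC-low arrays alone, and ran from 0 to 1 with 1 rat left out (1 without linalool rat 2). For the average stress effect it became 1 (Psmc6) under the same 3 settings. For the average linalool effect it became 1 with a filter at the 60th percentile or the beta-actin covariate (Psmf1) and without control rats 1 and 2 together (a dimmer probe set of Psme4), and ran from 0 to 1 with 1 rat left out (Psmf1 without control rat 3). For stress with linalool minus control it became 1 with the beta-actin covariate (Psme4) and without control rats 1 and 2 (a dimmer probe set of Psme4), and ran from 0 to 1 (1 without control rat 1). For stress with linalool minus stress it became 1 in a fit of the 2 groups (a dimmer probe set of Psme4).

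With the values as deposited the median difference of the 54 probe sets was 0.089 for stress minus control, 0.262 for stress with linalool minus linalool, -0.085 for linalool minus control, 0.091 for stress with linalool minus stress, 0.182 when rats given stress with linalool were set against control rats, 0.176 for the average stress effect, -0.005 for the average linalool effect and 0.191 for the interaction. The medians of all probe sets were then 0.099, 0.322, -0.167, 0.052, 0.156, 0.208, -0.057 and 0.224. For linalool minus control the median of 0.104 was 0.036 without control rats 1 and 2, and 0.054 to 0.113 with 1 rat left out, lowest without control rat 2. With the replicate block, which the numbers do not support as a pairing, the count was 0 and the median 0.104 for that comparison, and no proteasome call changed in the others. Among genes outside the proteasome the block lost the calls of Uba6, Tapbp and Pdia3 for stress with linalool minus stress (adjusted p = 0.0771, 0.0698 and 0.0611) and of Slco1a4 and Opalin for the average stress effect (0.0656 and 0.0537). Over all probe sets tested the alternatives gave 44 to 259 calls for stress minus control (168 as reported), 73 to 1103 for stress with linalool minus linalool (314), 0 to 386 for stress with linalool minus stress (121), 203 to 1061 against control rats (748), 406 to 1035 for the average stress effect (784), 0 to 357 for the average linalool effect (133), 0 to 2 for linalool minus control (0) and 0 to 14 for the interaction (0). Of 5022 alternative values of named proteasome genes, 11 became calls, 175 moved by more than 1 SE and 4836 did neither. None was called with the opposite sign. In 241 an uncalled value had the other sign. With 4 rats a group, differences of dim probe sets near the background are limited most.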
